A study of Homo sapiens with 12 samples.

Results

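All-trans retinoic acid (ATRA) added to decitabine (DAC) was followed in MOLM-13, an acute myeloid leukemia cell line with monocytic features that carries a KMT2A-MLLT3 fusion and no PML-RARA fusion. The comparison set 3 libraries of cells given 100 nM decitabine and 1 µM ATRA (DAC+ATRA) against 3 libraries of cells given 100 nM decitabine alone (DAC). These are 6 of the 12 libraries of the study, chosen by their labels. The other 6 libraries, ATRA alone and untreated cells, are shown beside them because ATRA against untreated is the nearest contrast without decitabine and shares no library with it. All treated libraries carry a label of 72 h, the untreated ones of 96 h, so in ATRA against untreated the drug and the label time cannot be told apart. The labels give medium with 20% fetal calf serum and 5 ng/ml GM-CSF for all groups, whereas the study's methods describe another serum share. According to the study's methods, ATRA was given with the last of the daily decitabine doses, so the cells met ATRA for less time than the label gives. ATRA was dissolved in DMSO and no vehicle library was used here, so ATRA and its solvent cannot be told apart. The labels number the 3 libraries of a group without saying that they came from separate cultures, so p-values measure only the spread between these libraries.

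ATRA is a ligand of the retinoic acid receptors, which sit on DNA as partners of the retinoid X receptors. Without ligand the pair holds corepressors at its target genes, and with ligand it recruits coactivators. In myeloid cells this switch is best known from acute promyelocytic leukemia, where ATRA drives granulocytic maturation. Decitabine is a cytidine analogue that is built into DNA and traps DNA methyltransferases there.

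RNA was measured as normalised counts, which are reads divided by 1 size factor per library and summed per gene symbol. The DAC libraries held 5.98, 4.67 and 6.95 M reads and the DAC+ATRA libraries 5.61, 6.5 and 7.16 M. The myeloid identity of the line was checked on 12 markers. FLT3 had 7493 to 9559 normalised counts in DAC and 7130 to 7681 in DAC+ATRA, and CD33, SPI1, LYZ and MPO were present in every library. CD68 and CSF2RA were listed at 0 in all libraries; the latter lies on both sex chromosomes and its reads cannot be placed. Some markers of other cells (CD3E, CD8A, MS4A1, KLRD1, ALAS2) had 0 or at most 2.04 normalised counts in each of these libraries, while CD3D reached 37.6 and CD79A 39.8. The 5 NK cell markers summed to 7.63, 14.1 and 14.2 in DAC and 2.8, 7.88 and 2.04 in DAC+ATRA. For 9 erythroid markers the sums were 6.36, 14.1 and 4.35 in DAC and 15.4, 3.38 and 12.3 in DAC+ATRA. The 5 megakaryocyte markers summed to 53.4, 56.5 and 38.1 in DAC and 9.8, 6.75 and 3.06 in DAC+ATRA. For 7 fibroblast and epithelial markers the sums were 21.6, 22 and 25 in DAC and 39.2, 48.4 and 58.2 in DAC+ATRA. DAC replicate 3 stood apart: on the second principal component of the 6 libraries (12.6% of the variance) it scored -40.05, whereas the other DAC libraries scored 23.39 and 20.17. RN7SL1, a non-coding RNA, took 4.84% of its reads and between 10.1% and 13% in the other 5 libraries. DAC and DAC+ATRA were parted on the first component (66.6%).

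Adding ATRA to decitabine changed 1998 of 10641 protein-coding genes tested, which is 18.8% (limma, Benjamini-Hochberg adjusted p under 0.01, the threshold for every call below). Of these, 962 were higher (9.04%) and 1036 were lower (9.74%) in DAC+ATRA. The strongest changes were rises: 71 genes rose by over 16-fold and 33 fell by over 16-fold. A change over 2-fold was called in 1085 genes (10.2%), 570 higher (5.36%) and 515 lower (4.84%). At the other end, 392 of the rises and 521 of the falls were of at most 2-fold. The median change of all genes was 0.00 on the log2 scale, and 49.9% of genes had a positive change. The libraries of DAC and DAC+ATRA did not overlap in 1990 of the 1998 genes called, against 39.6% of all genes tested (19.3% higher and 20.3% lower). Some of the calls rest on a group near 0. In 120 genes called higher every DAC library was under 10 normalised counts, and in 110 genes called lower every DAC+ATRA library was. Of these, 89 and 69 would have passed the filter on the untreated and ATRA libraries alone. The others passed it with the help of the higher of both groups, which favours a difference, and their number is not read as support.

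**Figure D1:**
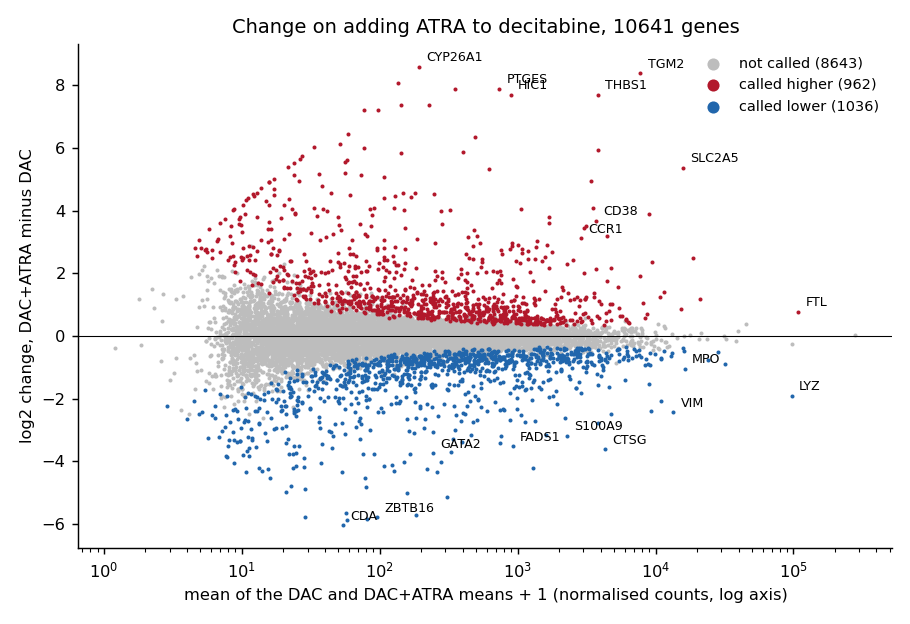
Each point is 1 of 10641 genes, with its level (mean of the DAC and DAC+ATRA means, log axis) against its log2 change, DAC+ATRA minus DAC. The 962 genes called higher reach further from 0 than the 1036 called lower, and genes of both kinds occur over the whole range of levels.

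Genes of retinoid turnover and signalling were among the largest rises. CYP26A1, the cytochrome that oxidises and so inactivates retinoic acid, had 0 reads in all 3 DAC libraries and 386, 375 and 390 normalised counts in DAC+ATRA, at least 81.6-fold higher (against a floor of 3 reads per library). TGM2, the tissue transglutaminase, went from 40.7, 50.2 and 45.7 to 15475, 15789 and 15285, a 335-fold rise. HIC1, a zinc finger repressor, went from 10.2, 4.7 and 8.71 to 1657, 1750 and 1913, a 208-fold rise (log2 change 7.70 ± 0.21 SE, adjusted p = 1.08e-15). In these 3 genes the 3 DAC+ATRA libraries lay close together and far above every DAC library.

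The receptors themselves moved unequally. RARB, the retinoic acid receptor beta, had 0, 0 and 2.18 normalised counts in DAC and 99.4, 96.8 and 108 in DAC+ATRA, a ratio of 119 with a counting interval of 32.7 to 990. RXRA, a retinoid X receptor, fell from 1056, 952 and 671 to 546, 583 and 574 (log2 change -0.63 ± 0.16, adjusted p = 0.00512), and leaving out any 1 of the 6 libraries except DAC replicate 3 ended that call. RARA, with 61.1, 37.6 and 15.2 in DAC and 51.8, 73.2 and 61.3 in DAC+ATRA, overlapped between the groups. NCOA3, a coactivator of nuclear receptors, rose 6.69-fold, from 19.1, 32.9 and 21.8 to 153, 170 and 176. In all, 2 of 8 receptors and cofactors tested were called higher and 1 lower, against 9.04% and 9.74% of all genes.

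Enzymes that break down retinoic acid or turn retinal back to retinol rose, and 2 that make retinoic acid or its precursor fell. DHRS3, which reduces retinal back to retinol, went from 159, 130 and 86 to 7385, 7897 and 7429, a 61.9-fold rise. CYP26C1, a relative of CYP26A1, had 0, 1.57 and 0 in DAC and 18.2, 38.3 and 38.8 in DAC+ATRA. ALDH1A3, a retinal dehydrogenase, fell from 31.8, 22 and 29.4 to 2.8, 6.75 and 11.2, and DHRS9, a retinol dehydrogenase, fell 3.44-fold. The call for ALDH1A3 was lost without any 1 of these libraries except DAC+ATRA replicate 3. Of 10 genes of retinoid metabolism tested, 3 were called higher and 2 lower, against 9.04% and 9.74% of all genes.

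Of 16 retinoid targets tested from a list of 20, 11 were called higher and 2 lower, with a median log2 change of 3.60. CD38, a surface enzyme that consumes NAD, rose 12.8-fold, from 525, 508 and 566 to 6774, 6821 and 6970. CEBPE, a transcription factor of late granulocytes, fell from 1814, 1598 and 1469 to 794, 831 and 794. TNFSF10, which encodes the death ligand TRAIL, fell 2.01-fold. Among the members not called, BHLHE40 had a change of 0.21 and TGIF1 of -0.19.

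Promoters were read to show what sequence lies in front of the genes that rose. The retinoic acid receptor binds 2 half-sites in a row, and the classic spacing is 5 bases (a DR5 element). The 250 bases before each RefSeq start site (GRCh38.p14) were searched on both strands for a pair of half-sites, 5 bases apart. The half-site was AGGTCA or a form of it that opens with G, that has T in place of the later G before TCA, or both. A promoter entry existed for 8541 of the genes tested (80.3%), with 12189 start sites, and 8 of these start sites held such a pair (0.0656%). They belonged to 7 genes, of which 4 were called higher (CYP26A1, RARB, BATF2 and PANK2), 0 lower, and 3 were not called (ATXN1L, PHF8 and PRSS27). The stretches of 30 bases around the pair in CYP26A1 (chr10:93073796-93073825, plus strand, starting 90 bases before the start site), RARB (chr3:25428203-25428232, plus strand, 53 bases before) and BATF2 (chr11:64990284-64990313, minus strand, 29 bases before) are given 5′ to 3′ with both half-sites and the bases between them in capitals.
CYP26A1: ttaaagaTGAACTTTGGGTGAACTaattgt
RARB: cgggtagGGTTCACCGAAAGTTCActcgca
BATF2: gaagcagAGTTCATGTGAGGGTCAggaagg
In CYP26A1 the pair reads on the opposite strand. BATF2, a transcription factor of the AP-1 family, had a log2 change of 3.51. It and PANK2 (log2 change 0.76) are named because of the sequence, after their values were seen. A match is a description of letters and not of receptor binding, and TGM2 and HIC1 had no promoter entry.

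**Figure D2:**
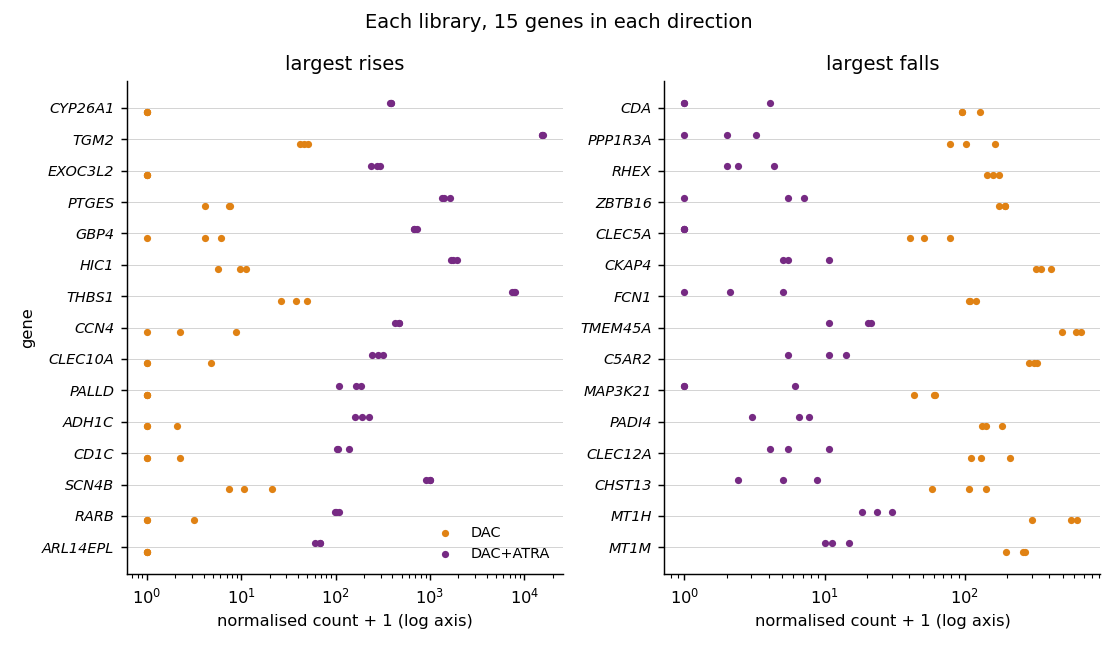
Points are single libraries (normalised count + 1, log axis) of DAC and DAC+ATRA for the 15 largest rises and the 15 largest falls. No DAC library overlaps a DAC+ATRA library in any of the 30 genes.

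Other large rises were in genes of varied function. PTGES, which makes prostaglandin E2, went from 6.36, 3.14 and 6.53 to 1355, 1421 and 1612, a 238-fold rise. GBP4, a guanylate-binding GTPase, went from 5.09, 3.14 and 0 to 735, 679 and 674. THBS1, the matrix protein thrombospondin 1, went from 25.4, 48.6 and 37 to 7321, 7733 and 7882, a 208-fold rise. The others among the 15 were EXOC3L2, CCN4, CLEC10A, PALLD, ADH1C, CD1C, SCN4B and ARL14EPL, of which EXOC3L2, PALLD and ARL14EPL had no read in any DAC library. Counted in normalised counts rather than in folds, the largest rise was FTL, the light chain of the iron store ferritin, from 78169, 70349 and 91332 to 143803, 133765 and 131415 (1.71-fold). It was followed by SLC2A5, a fructose transporter (41.3-fold), PLEK, pleckstrin (5.65-fold), TMSB10, which binds actin monomers (2.25-fold), and CYP27A1, a sterol hydroxylase of mitochondria (14.9-fold).

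The 15 largest falls left each gene, expressed at moderate level in decitabine-treated cells, at no more than 29.4 normalised counts in any DAC+ATRA library. CDA, the cytidine deaminase that inactivates cytidine analogues such as decitabine, went from 127, 94.1 and 93.6 to 0, 0 and 3.06, a ratio of 90.4. ZBTB16, which encodes the transcription repressor PLZF, went from 193, 174 and 192 to 0, 4.5 and 6.13 (log2 change -5.78 ± 0.54, adjusted p = 8.6e-08). CLEC5A, an activating lectin of myeloid cells, went from 39.4, 50.2 and 77.3 to 0 in all 3 libraries, at least 13.2-fold lower. PADI4, which converts arginine to citrulline in histones, went from 141, 183 and 131 to 5.6, 6.75 and 2.04. Also among the 15 largest falls were PPP1R3A, RHEX, CKAP4, FCN1, TMEM45A, C5AR2, MAP3K21, CLEC12A, CHST13 and the metallothioneins MT1H and MT1M. The metallothioneins are near-copies of each other, so their separate values are uncertain. In normalised counts the largest falls were LYZ, lysozyme, from 138676, 136550 and 184635 to 43517, 39104 and 39835 (3.72-fold), CALR, calreticulin (1.84-fold), VIM, vimentin (5.43-fold), AHNAK (4.23-fold) and SCD, the stearoyl-CoA desaturase (5.2-fold).

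The genes that handle decitabine moved apart. SAMHD1, which cleaves deoxynucleotide triphosphates, rose 7.22-fold, from 338, 320 and 327 to 2367, 2359 and 2401 (log2 change 2.85 ± 0.10, adjusted p = 8.26e-14). SLC28A3, a nucleoside carrier, fell from 87.8, 94.1 and 62 to 14, 4.5 and 17.4, and DUT, the dUTPase, fell 1.59-fold, a call lost without DAC replicate 1 or DAC+ATRA replicates 1 or 3. The carrier SLC29A1 overlapped between the groups, with 73.8, 70.6 and 42.5 in DAC and 58.8, 58.5 and 61.3 in DAC+ATRA. DCK, the kinase that activates decitabine, was too low to test. With CDA, 1 of 11 genes of this list tested was called higher and 3 lower, against 9.04% and 9.74% of all genes. Among 13 DNA methylation enzymes and readers tested, 1 was called higher, 1 lower and 11 not, with 18.8% of all genes called. DNMT3A, a de novo methyltransferase, rose 2.04-fold and UHRF2, which binds methylated DNA, fell 1.41-fold (not called without DAC+ATRA replicate 3). DNMT1 was not called, with 89, 84.7 and 59.9 in DAC and 58.8, 46.2 and 63.3 in DAC+ATRA.

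Most genes on the azurophil granule list fell, while secondary granule genes were split. The azurophil list also holds the eosinophil granule genes PRG2, RNASE2 and RNASE3. Of its 11 genes tested, 8 were called lower, PRG2, RNASE2 and RNASE3 among them, and 0 higher. The median log2 change of the list was -1.90. CTSG, cathepsin G, went from 8498, 7049 and 8522 to 721, 643 and 596, a 12.3-fold fall. MPO, myeloperoxidase, went from 27376, 22174 and 16548 to 9201, 10966 and 11105 (2.08-fold), and PRG2, the major basic protein of eosinophils, fell 10.7-fold. SRGN, the proteoglycan that packs the granules, was among the 3 not called, with 243534 to 341014 in DAC and 268886 to 312112 in DAC+ATRA. The S100 genes, calcium-binding proteins of which S100A8 and S100A9 form calprotectin, fell in 7 of 10 genes tested (0 higher, median -1.45): S100A9 went from 3933, 3999 and 4425 to 441, 466 and 441, a 9.14-fold fall. Of 5 secondary granule genes tested, 2 were called higher and 2 lower, with MMP9, gelatinase B, 7.56-fold higher and TCN1, which binds vitamin B12, 11.4-fold lower.

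Surface receptors changed in both directions. Among 16 chemoattractant and complement receptors tested, 5 were called higher and 5 lower, against 9.04% and 9.74% of all genes. Of the chemokine receptors, CCR1 went from 579, 488 and 753 to 5374, 5172 and 5031 (8.68-fold), CCR2 rose 5.55-fold, CX3CR1 was called higher as well and CXCR4 lower. The 4 complement receptors tested on this list fell: C5AR2 by 32.5-fold, C5AR1 by 8.75-fold, C3AR1 by 5.13-fold and CR1 by 5.03-fold (the last not without DAC replicate 2 or DAC+ATRA replicate 1). C-type lectins were split 4 and 4 of 14 tested, with CLEC10A, CD209, CLEC4G and ASGR2 higher and CLEC5A, CLEC12A, CLEC12B and CLEC7A lower. The call for CLEC4G was lost with DESeq2, with edgeR and without any 1 of the 6 libraries except DAC replicate 3. Of the adhesion molecules, ICAM1 rose 6.82-fold, whereas SELPLG, the ligand of P-selectin, fell 4.84-fold and PECAM1 fell 2.95-fold. ITGAM, which encodes CD11b, was not called, with 30.5, 31.4 and 18.5 in DAC and 39.2, 43.9 and 55.1 in DAC+ATRA. NCF1, a subunit of the phagocyte oxidase that has near-identical pseudogene copies, rose 4.44-fold.

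Genes of antigen presentation rose. On the list of surface molecules of antigen-presenting cells, 8 of 15 genes tested were called higher and 1 lower (median 1.05). CD1A, CD1C and CD1D, which present lipids, had 0 or 1.27 normalised counts in each DAC library: in DAC+ATRA CD1C had 137, 106 and 103, CD1A 47.6, 52.9 and 58.2, and CD1D 44.8, 39.4 and 38.8. The member that fell was ANPEP, the aminopeptidase CD13, from 773, 735 and 662 to 50.4, 77.7 and 79.6 (10.5-fold). Of 7 genes of MHC class II presentation tested, 5 were called higher and 0 lower (median 2.03). CIITA, the master regulator of class II genes, rose 5.29-fold, and CD74, the invariant chain, went from 118, 143 and 77.3 to 399, 469 and 487. CTSS was called higher too. Of the HLA class II genes, HLA-DRB1 and HLA-DRB5 rose but share sequence, and HLA-DRA and HLA-DQB1 were not called. The other HLA class II genes on the list were not tested. Of 13 genes of MHC class I presentation tested, 5 were called higher, among them HLA-B (2.03-fold), and CALR lower.

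Interferon-response genes were higher when ATRA was added. Of 42 interferon-stimulated genes tested, 23 were called higher and 0 lower, with a median log2 change of 0.94, and 39 had a positive change. OAS3, which makes 2-5 oligoadenylates, went from 14, 14.1 and 21.8 to 279, 276 and 286, a 16.3-fold rise (adjusted p = 8.79e-12). RSAD2, the antiviral enzyme viperin, went from 17.8, 34.5 and 44.6 to 193, 143 and 200. IRF1, an interferon-inducible transcription factor, rose 8.99-fold from 98, 91 and 74 to 809, 773 and 789, and 8 of the 12 genes tested on its list with the guanylate-binding proteins were called higher (0 lower, median 1.35). Among the nucleic acid sensors, 4 of 12 tested were called higher, against 9.04% of all genes. DDX58, the sensor RIG-I, went from 21.6, 34.5 and 53.3 to 75.6, 75.4 and 77.6. IFIH1, the sensor MDA5, was not called, with 49.6, 36.1 and 44.6 in DAC and 43.4, 36 and 29.6 in DAC+ATRA. Without DAC replicate 3 the sensors counted 2. All 4 calls were lost when limma was fitted to only the 6 libraries compared (DDX58 adjusted p = 0.0158). MAVS, the adaptor of DDX58 and IFIH1, overlapped between the groups.

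A pair of GAAA with any 2 bases between them, the core that interferon regulatory factors bind, stood on either strand in 311 of the 12189 start sites of genes tested (2.55%), in 58 of 1061 start sites of genes called higher (5.47%) and in 19 of 1055 of genes called lower (1.8%). On the list of interferon-stimulated genes 25 of 49 start sites held it (51%). The stretches before the start site of 3 genes that rose are given with the pair in capitals, namely OAS3 (chr12:112938321-112938350, plus strand), IFI44L (chr1:78620234-78620343, plus strand) and IFI6 (chr1:27672289-27672398, minus strand).
OAS3: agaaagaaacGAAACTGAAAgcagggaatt
IFI44L: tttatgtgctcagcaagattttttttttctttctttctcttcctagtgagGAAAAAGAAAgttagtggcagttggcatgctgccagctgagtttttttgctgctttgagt
IFI6: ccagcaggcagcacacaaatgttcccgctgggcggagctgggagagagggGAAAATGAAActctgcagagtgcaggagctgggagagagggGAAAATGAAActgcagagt
In IFI6 the pair occurs 2 times within the printed stretch, and its call was lost without DAC replicate 2 or DAC+ATRA replicates 2 or 3. The list was chosen for its response to interferon, so the share of its promoters that hold the pair is a description.

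**Figure D3:**
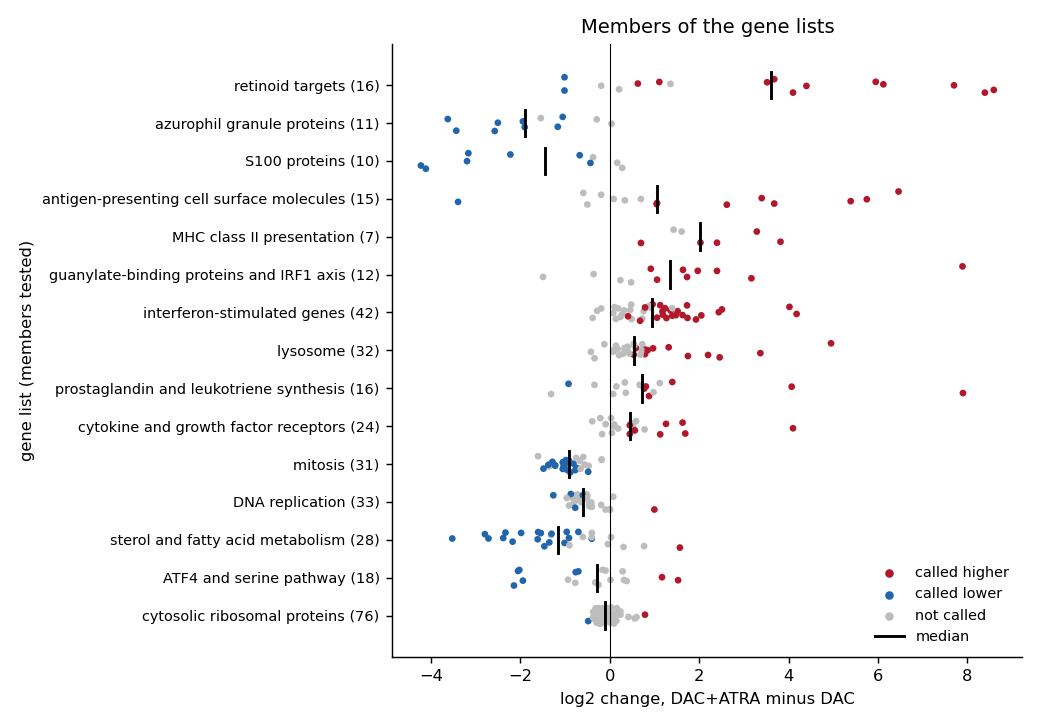
Points are the members tested of 15 gene lists (number of members in brackets) by log2 change, DAC+ATRA minus DAC, coloured by call, with the list's median as a bar. Retinoid targets have the highest median (3.60) and the azurophil granule list, which also holds eosinophil granule genes, the lowest (-1.90). Cytosolic ribosomal proteins stay near 0 (-0.11).

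Genes of cell division fell by a small but common step. Of 31 mitosis genes tested, 19 were called lower, 0 higher and none had a positive change (median -0.91). AURKA, the Aurora A kinase, went from 63.6, 61.2 and 61 to 21, 28.1 and 21.4, and PTTG1, securin, fell 2.58-fold. Of 33 DNA replication genes tested, 6 were called lower and 1 higher (median -0.60), against 9.74% and 9.04% of all genes. A positive change was seen in 4 of the 33. MCM6, a subunit of the replicative helicase, fell from 3272, 2936 and 2855 to 1734, 1738 and 1606. With edgeR and TMM factors 11 were called lower, and without DAC replicate 3 the count was 10. MYC fell 1.98-fold, from 66.2, 65.9 and 67.5 to 36.4, 31.5 and 31.7 (adjusted p = 0.00282, not called without DAC+ATRA replicates 2 or 3). Of 16 CDK inhibitors and G1 cyclins tested, 1 was called higher and 2 lower, a share like the 18.8% of all genes. BTG2, an antiproliferative gene, rose 2.22-fold, whereas the CDK inhibitor CDKN1B was among those called lower. Of 25 apoptosis regulators tested, 3 were called lower, 1 higher and 21 not, with 18.8% of all genes called. BCL2, which protects from apoptosis, fell 4.68-fold from 420, 615 and 666 to 153, 100 and 107. The member called higher was BCL2L1 (log2 change 1.75). Its call was lost with DESeq2, with edgeR and without any 1 of the 6 libraries except DAC replicate 1. The letters TTTGAA, known from the cell cycle homology region of mitosis genes, stood on either strand before 16 of 32 start sites of the mitosis list (50%) and before 1125 of all 12189 start sites (9.23%). They stood before 10.6% of the start sites of genes called higher and 11% of those of genes called lower. They are shown in capitals for HMMR (chr5:163460592-163460621, plus strand) and BUB1B (chr15:40161034-40161063, plus strand), which fell 2.78-fold and 2.43-fold.
HMMR: aatgtggggagaTTTGAATTTGAAaccggt
BUB1B: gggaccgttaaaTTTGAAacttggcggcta
In HMMR the letters stand 2 times in a row. The call for BUB1B was lost without DAC replicates 2 or 3 or DAC+ATRA replicates 1 or 3, and that for HMMR without DAC replicate 3 or DAC+ATRA replicate 2.

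Sterol and fatty acid genes fell together. Of 28 genes tested, 18 were called lower and 1 higher (median -1.15). FADS1, a fatty acid desaturase, went from 1641, 1631 and 1796 to 174, 120 and 150, an 11.5-fold fall, and CYP51A1, the lanosterol demethylase of cholesterol synthesis, from 2247, 2134 and 2541 to 406, 346 and 309. FDPS, farnesyl diphosphate synthase, fell 6.94-fold. The member that rose was ABCA1, which exports cholesterol from the cell, from 481, 505 and 492 to 1386, 1433 and 1595. On the ATF4 and serine pathway list 6 of 18 tested fell, against 9.74% of all genes, and 2 rose, CEBPB and DDIT4, against 9.04%. Among the falls were PSAT1 of serine synthesis (4.06-fold) and TRIB3 (4.13-fold). Lysosomal genes moved the other way: 12 of 32 tested were called higher and 0 lower (median 0.54), including PSAP, prosaposin, from 215, 185 and 121 to 834, 975 and 992. CTSD, cathepsin D, had 154, 141 and 23.9 in DAC, with replicate 3 far below the others, and 812, 755 and 982 in DAC+ATRA. Of 76 cytosolic ribosomal protein genes tested, 73 were not called.

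Transcription factors of the myeloid lineage were mostly not called (21 of 33 tested), with 7 higher and 5 lower. Of all genes, 9.04% were called higher and 9.74% lower. IRF4, a factor of dendritic and lymphoid cells, rose from 11.4, 6.27 and 2.18 to 85.4, 83.3 and 104, and CEBPB, a factor of maturing myeloid cells, rose 2.89-fold. GATA2, a factor of stem and progenitor cells, fell 13.5-fold, from 580, 370 and 405 to 30.8, 31.5 and 33.7, and RUNX1 fell 2.41-fold, a call that held without DAC replicate 1 and was lost without any other of the 6 libraries. SPI1, which encodes PU.1, overlapped between the groups. On the list of the HOXA cluster, MEIS1 and PBX3, which KMT2A fusions keep active, 1 of 10 genes tested was called higher (HOXA6), 3 were called lower and 7 had a positive change (median 0.15). The call for HOXA6 was lost with DESeq2, with edgeR and without any 1 of the 6 libraries. HOXA11, among those called lower, was not called without DAC replicate 1 or DAC+ATRA replicates 2 or 3. HOXA9 fell 1.64-fold, from 889, 899 and 1197 to 640, 549 and 611. Among secreted factors, CCL2, a monocyte attractant, rose 11.5-fold and HBEGF, a ligand of the EGF receptor, rose 13.9-fold, whereas OSM, oncostatin M, fell 7.03-fold. KIT, the stem cell factor receptor, rose 17.2-fold from 11.4, 25.1 and 6.53 to 164, 277 and 271. THBD, thrombomodulin, rose 30.6-fold and ALOX12, a lipoxygenase, 16.8-fold.

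Non-coding genes were tested in a second family of all symbols. Of 2573 tested, 332 were called (12.9%), 150 higher (5.83%) and 182 lower (7.07%). The largest rise was AC004263.1, from 0 in all DAC libraries to 98, 104 and 119, and LINC00996 rose 34.9-fold. C6orf223 went from 212, 210 and 192 to 0, 2.25 and 2.04, AC104823.1 from 57.2, 69 and 75.1 to 0, 1.13 and 0, and LAMP5-AS1, an antisense RNA, fell 12.8-fold.

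Without decitabine, ATRA against untreated called 2772 genes (26.1%). Of the 962 genes called higher in DAC+ATRA against DAC, 735 were also called higher with ATRA alone, 6 were called lower and 221 were not called. Of the 1036 called lower, 788 were also called lower, 3 higher and 245 not called. The genes called in the same direction in both contrasts make up 76.2% of the calls with decitabine and 54.9% of those without it. Over the 10641 genes, which do not count as independent replicates, Pearson's r between both changes was 0.823 and the SD of the changes was 0.938 with decitabine and 1.05 without. A call in one contrast and not in the other does not show that the contrasts differ, so the difference was tested as an interaction in the same fit. Since untreated cells are labelled 96 h and the others 72 h, decitabine and label time cannot be told apart in the interaction. This test passed in 170 genes (1.6%), with a positive sign in 77 (0.724%) and a negative sign in 93 (0.874%), and among them were 112 of the 1998 genes called with decitabine.

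**Figure D4:**
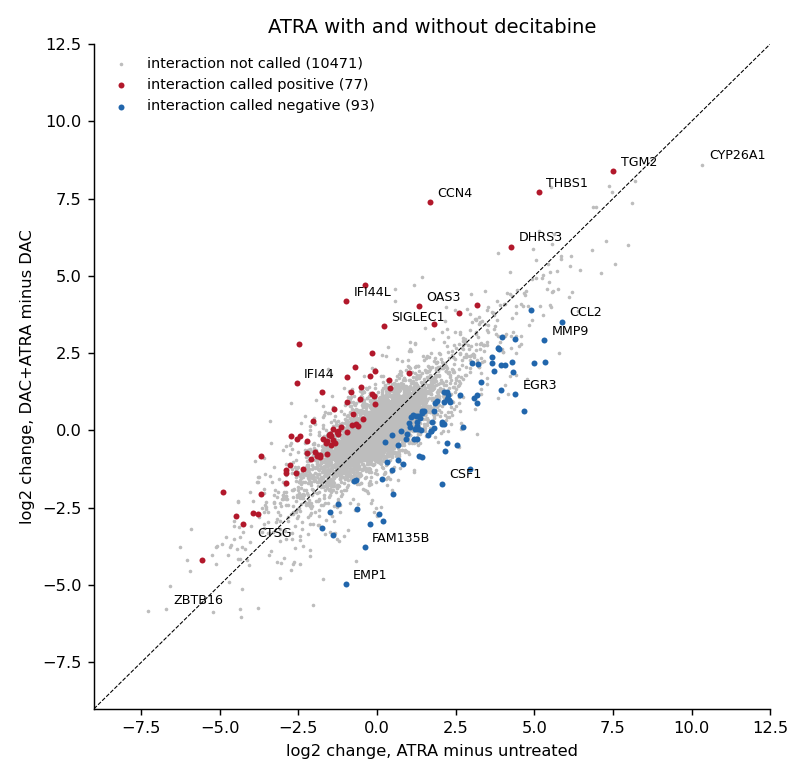
Each point is 1 of 10641 genes, with its log2 change for ATRA minus untreated on the x axis and for DAC+ATRA minus DAC on the y axis; the dashed line marks equal changes. The 77 genes with a positive and the 93 with a negative interaction lie on either side of that line.

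Among 16 retinoid targets the interaction was called positive in 2 (TGM2 and DHRS3) and negative in 3. TGM2, DHRS3 and THBS1 had interactions of 0.87, 1.68 and 2.55 on the log2 scale. In THBS1 the DAC+ATRA libraries had 7321 to 7882 normalised counts and the ATRA libraries 3527 to 4294, from 25.4 to 48.6 in DAC and 95.3 to 119 in untreated cells. In TGM2 the levels with ATRA overlapped, 15285 to 15789 with decitabine and 13182 to 15975 without, whereas DAC lay below untreated. In DHRS3 the level was lower with both drugs, 7385 to 7897, than with ATRA alone, 7925 to 9630, and DAC lay below untreated as well. CCN4, a matricellular protein of the WNT pathway, had at most 7.84 in every library of the other 3 groups and 465, 466 and 423 in DAC+ATRA (interaction 5.71 ± 0.85 SE, adjusted p = 0.000467). For CYP26A1 the interaction was -1.73 (adjusted p = 0.022) and not called, and neither was that for HIC1 or RARB.

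For the interferon-stimulated genes the median log2 change was 0.94 with decitabine and 0.12 without, and the interaction was called positive in 12 of 42 genes and negative in 0. Of the 23 genes called higher with decitabine, 9 were called higher with ATRA alone, 2 lower and 12 not. The DAC mean lay below the untreated mean in 33 of the 42 genes, against 48.2% of all genes tested. Such a majority was also seen in other lists (65 of 76 ribosomal protein genes). Among the 23 it was 20, but these genes were selected as higher than DAC, which favours a low DAC mean. That count is not read as support. IFI44L, with 49, 79.6 and 33.2 normalised counts in untreated cells and 0, 0 and 5.44 in DAC, had 21.5, 21.6 and 34.3 with ATRA and 15.4, 46.2 and 49 with both drugs. IFI44 had 87.2 to 172 in untreated cells, 7.63 to 20.7 in DAC, 15.9 to 23.1 with ATRA and 28.1 to 43.4 with both. With both drugs IFI44L overlapped the untreated libraries and IFI44 lay below them, and the rise of IFI44 was not called without DAC replicates 1 or 2 or DAC+ATRA replicate 1. SIGLEC1, the macrophage lectin CD169, did exceed them, with 77, 108 and 99 in DAC+ATRA against 16.9 to 41.4 in untreated cells. The part of the low DAC baseline in these interactions was not tested.

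Negative interactions held genes that ATRA raised more, or lowered less, without decitabine. CCL2 rose from 344 to 541 in untreated cells to 22280 to 28630 with ATRA, but from 461, 510 and 540 to 6337, 5692 and 5315 with decitabine (interaction -2.37, adjusted p = 1.94e-06). EGR3, an immediate-early factor, had 98.2 to 127 in untreated cells, 7.63 to 25.1 in DAC, 1799 to 2656 with ATRA and 21.4 to 45 with both drugs. Its rise over DAC was not called with edgeR, without DAC replicates 1 or 3 or without DAC+ATRA replicates 1 or 2. CSF1, the macrophage growth factor, had 16.9 to 31.7 in untreated cells, 6.36 to 7.84 in DAC, 72.7 to 150 with ATRA and 1.4, 2.25 and 1.02 with both. Its fall from DAC was not called with DESeq2 or edgeR. EMP1, an epithelial membrane protein, had 38.2 to 40.3 in DAC, 41 to 52.1 with ATRA and 0, 1.13 and 0 with both. FAM135B was expressed in DAC, with 324, 328 and 279, and at no more than 28.6 in any other library. ANPEP had 773, 735 and 662 in DAC and 156 to 179 in untreated cells, and with ATRA it lay between 50.4 and 79.6 in all 6 libraries.

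**Figure D5:**
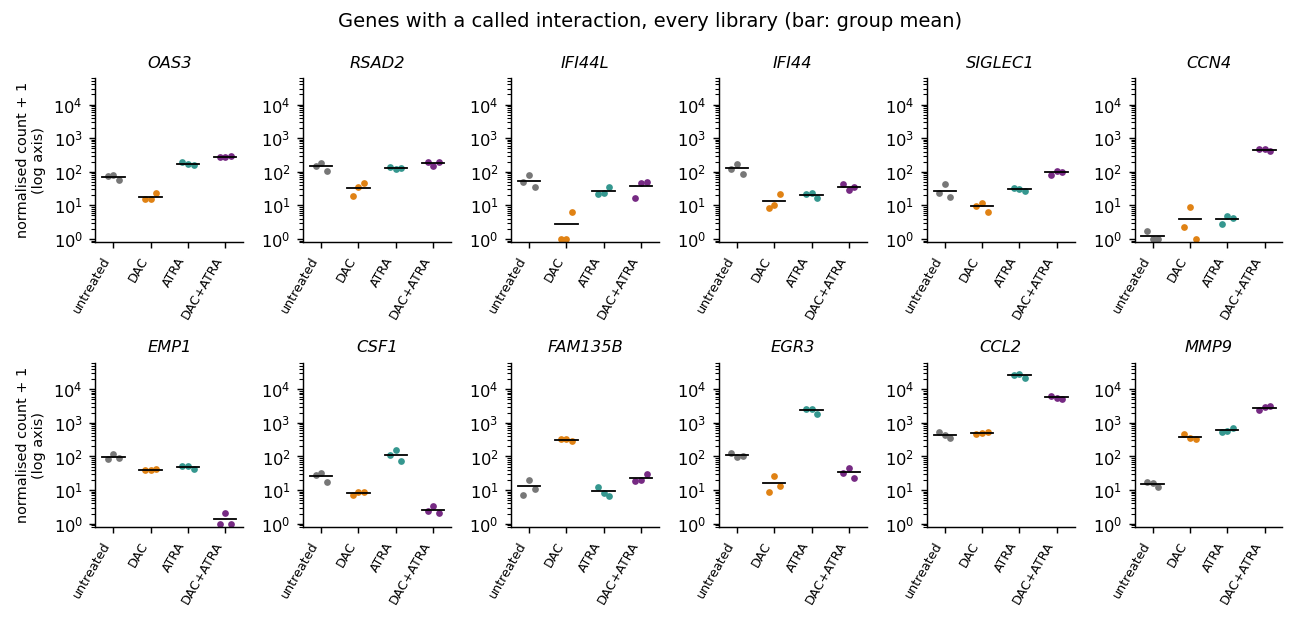
Points are the libraries of all 4 groups (normalised count + 1, log axis) for 12 genes with a called interaction, with the group mean as a bar. The upper row holds positive interactions, in which DAC is low or DAC+ATRA is high, and the lower row negative ones.

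Of the 14 genes that the study discusses for transcription, 4 were called higher (HIC1, CYP26A1, GBP4 and DDX58), 4 lower (LYZ, CTSG, ELANE and MYC) and 6 were not called. The study picked some of them for their response to the same drugs, so their count is no independent evidence of a direction. ELANE, neutrophil elastase, had 15.3, 25.1 and 17.4 in DAC and 2.8, 7.88 and 3.06 in DAC+ATRA, and its call was lost without DAC replicate 2 or DAC+ATRA replicates 1 or 3. IL7R, the interleukin 7 receptor, had 109, 174 and 216 in DAC and 223, 241 and 260 in DAC+ATRA (adjusted p = 0.0605). ERV3-1, an endogenous retroviral envelope gene that overlaps ZNF117 on the same strand, had 219, 301 and 297 in DAC and 377, 400 and 408 in DAC+ATRA (adjusted p = 0.0165). In both genes the groups did not overlap and the threshold was missed with limma on all libraries and passed without DAC replicate 3, and ERV3-1 also passed with DESeq2.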

How the data were processed

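RNA-seq was performed on 12 libraries of MOLM-13 in 4 groups of 3. The authors deposited normalised counts (a signal value, reads divided by a DESeq2 size factor) for 100502 transcript rows; the submitters' processing notes name FastQC, STAR, HTSeq, DESeq2 and hg38, with versions not given in the sources used here. Dividing by the step of each library gave whole reads for 100% of values (tolerance 0.01 reads). Rows were summed to 46639 symbols. Reads that fit several transcripts can be lost in such counting, so levels were compared between genes only in the ranking by difference of means. That ranking carries this limit. Genes on both sex chromosomes were not measured.

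The test covered protein-coding symbols (GENCODE 44) that reached 10 normalised counts in 3 or more of the libraries, on log2(normalised count + 1) with limma 3.58.1 in R 4.3.3, with all 12 libraries in 1 fit and Benjamini-Hochberg adjustment. Folds on this scale understate low genes. Errors are SE. A group at 0 was set to 3 reads per library to give a lower bound, and counting intervals cover counting error only. edgeR 4.0.16 and DESeq2 1.42.0 on the recovered reads were alternatives. On simulated counts for DAC+ATRA against DAC over 10641 genes, 59% of 2-fold and 88% of 4-fold changes were recovered. Named genes were those the study discusses, the 15 largest changes in each direction, the 5 largest by difference of means, the 4 largest interactions in each direction, up to 4 called members of each list in each direction with members not called added for their role, and the 5 largest non-coding changes in each direction. The members and lists were chosen with earlier results of these data known. Some items are not reported here.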

Additional observations from a re-analysis of the deposited data

Results flagged for a closer look

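In 34 named genes the change from DAC to DAC+ATRA differed from that from untreated to ATRA by the interaction test (limma, adjusted p under 0.01). Untreated cells are labelled 96 h and the others 72 h, so decitabine and label time cannot be told apart in these values. The values are log2 changes, DAC+ATRA minus DAC, less those of ATRA minus untreated. Among genes of retinoid response and large rises, the interaction was 0.87 for TGM2, 2.55 for THBS1, 5.71 for CCN4, 1.68 for DHRS3, 0.88 for ALOX12 and 1.20 for HBEGF. It was 3.01 for IL2RA, the alpha chain of the interleukin 2 receptor, whose log2 change was 1.26 with decitabine, a call lost in 7 alternatives, and -1.75 without it. Among interferon-response genes it was 5.17 for IFI44L, 4.08 for IFI44, 3.15 for SIGLEC1, 2.69 for OAS3 and 2.66 for RSAD2. Among genes of stress and cell cycle it was 1.33 for DDIT4, 1.63 for TRIB3, 1.62 for GDF15 and 1.03 for CDT1.

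Negative values were found for secreted factors and proteases, with -3.78 for CSF1, -2.39 for MMP9, -2.37 for CCL2, -1.33 for TNFSF10 and -2.04 for COL1A1. Surface and adhesion molecules had -3.97 for EMP1, -2.14 for TREM1, -2.0 for ANPEP, -1.91 for CD44, -1.48 for ITGB7 and -1.19 for ITGAX. Lipid genes had -1.74 for ABCA1, -1.15 for SCD and -1.0 for CYP27A1. The remaining values were -3.40 for FAM135B, -3.21 for EGR3, -1.50 for BTG2 and -1.05 for NCF1.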

How the results depend on the processing

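The count of 1998 genes called in DAC+ATRA against DAC was 811 among genes with 1 transcript row, 3055 at an adjusted p under 0.05 and 1085 when a change over 2-fold was also asked. Leaving out 1 library gave 1461 (without DAC+ATRA replicate 3) to 1981 (without DAC replicate 1). In the 19 settings compared gene by gene, 72.2% to 100% of the calls that could be tested were shared and 0 were called in the other direction. ATRA against untreated, 2772 genes, counted 1069 among genes with 1 transcript row and 1561 over 2-fold, and 2130 to 2639 with 1 library left out. The interaction, 170 genes, counted 325 with DESeq2 and 386 at an adjusted p under 0.05, and 106 (without untreated replicate 2) to 262 (without DAC replicate 3), with 112 without DAC+ATRA replicate 2; the cause was not tested. Of 212 named protein-coding genes called, 169 kept the call in every alternative and 43 lost it in at least 1; no value changed sign. Replicate numbers share only a number (correlation of deviations -0.057, 0.055 and -0.047), and the fit with the replicate block called 1832 genes. Depth of 4.67 to 11.9 M reads limits the test of low genes.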
